A study of Mus musculus with 13 samples.

Results

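The ribosomal protein genes were followed across the 10 RNA libraries of a study of Fezf2, a transcription factor known for specifying corticofugal projection neurons. A row of the count table was taken as a member when its symbol was RPL, RPS, RPLP or RPSA with the usual number and letter, and rows named as processed copies (-ps) were left out. This gave 82 of 35972 rows, 50 for the large subunit and 32 for the small subunit. Another 212 rows were named as processed copies and are described apart. Sorted cells came from neocortex of CD-1 IGS mice electroporated in utero with plasmids at E16.5 (embryonic day) and collected by fluorescence at postnatal day 3. They comprised 5 libraries titled Fezf2 + GFP, called Fezf2 here, and 3 titled GFP. Libraries of these cells were made from total RNA with NuGEN Ovation V2. The other 2 libraries were polyA RNA of whole C57BL6/J neocortex at postnatal day 0, prepared with a TruSeq mRNA kit, titled Emx-cre WT and Emx-cre KO and called wild type and the library labelled knockout here. The protocol names Emx1-cre and a floxed Fezf2 allele, and the labels do not say whether the wild type animal carried the cre. Emx1-cre acts in cortical progenitors, so cells of other lineages in that tissue keep the allele. The labels do not say whether the sorted replicates came from separate or pooled animals, so their p-values measure the spread between these libraries.

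Each ribosome carries 1 copy of nearly every ribosomal protein, and the genes for them are usually expressed together at high levels. The large subunit holds the peptidyl transferase centre, the exit tunnel and the stalk that recruits elongation factors, and the small subunit decodes the mRNA. Their mRNAs are short, abundant and typically begin with a C followed by a run of pyrimidines, the terminal oligopyrimidine (TOP) motif through which mTORC1 controls their translation. They have also given rise to many processed copies in the mouse genome, so reads from a gene and its copies can be hard to separate.

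Sorted libraries held 3245932 to 5801839 counts and neocortex libraries 11818437 and 17856211. Mitochondrially encoded genes took 21.0% to 27.1% of a sorted library and 0% of either neocortex library. The electroporated gene checked the labels of the sorted cells, since Fezf2 stood at 85.1 to 151.4 CPM (counts scaled to a common library size) in the Fezf2 libraries and 3.54 to 12.04 in the GFP libraries. It did not check the knockout label, because its log2 ratio of the library labelled knockout over wild type was 0.06. Pan-neuronal markers were present in each sorted library, with a summed level of 3955 to 5964 CPM, and no marker of glutamatergic neurons, astrocytes or the oligodendrocyte lineage was at 0 in all of them. Values for all 8 sorted libraries below are CPM scaled by the trimmed mean of M values (TMM), unless a sentence says otherwise.

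The RPL24 row carries the identifier ENSMUSG00000022601, which the gene name table pairs with Zbtb11, so its counts are uncertain. The RPS3A row matched Rps3a1. Rpl41, the shortest ribosomal protein, had no row, and Rpl10l, a testis paralog of Rpl10, was at 0 in each of the 10 libraries. How the authors' counting treated strand and reads with several matches is not stated in the labels, so genes that overlap others or have near-identical copies may share or lose reads.

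Ribosomal protein genes took a small part of the counts, and less in the sorted cells than in the neocortex. Their share was 0.250%, 0.264% and 0.294% in GFP replicates 1 to 3, and 0.167%, 0.169%, 0.225%, 0.260% and 0.232% in Fezf2 replicates 1 to 5. Fezf2 replicate 4 lay inside the GFP range and the other 4 lay below it, with replicates 1 and 2 lowest. The mean was 0.269% ± 0.0225 (SD, n = 3) in GFP and 0.210% ± 0.0410 (SD, n = 5) in Fezf2. In the neocortex the share was 0.842% in wild type and 0.937% in the library labelled knockout.

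**Figure D1:**
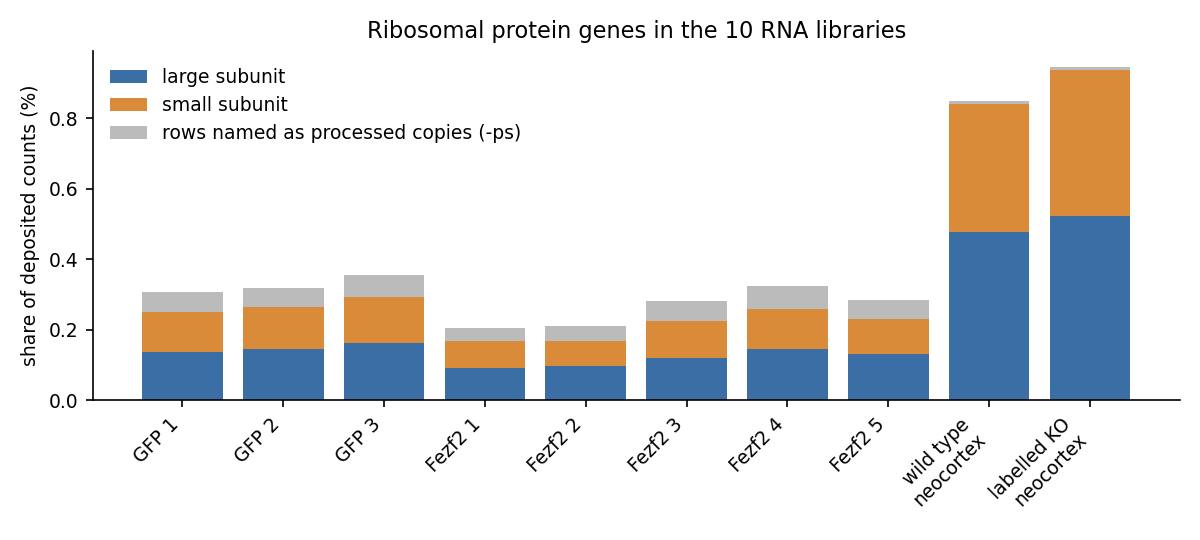
Share of all deposited counts (y axis, percent) on ribosomal protein genes in each of the 10 RNA libraries (x axis), split into large subunit, small subunit and rows named as processed copies. Family bars reach 0.167% to 0.294% in sorted cells and 0.842% and 0.937% in neocortex, and the grey segment for copies is visible mainly in sorted cells.

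Both subunits contributed in similar proportion throughout. Large subunit genes took 0.148% ± 0.0134 (SD, n = 3) of GFP counts and 0.116% ± 0.0224 (SD, n = 5) of Fezf2 counts, and small subunit genes 0.121% ± 0.00906 and 0.0941% ± 0.0193. The ratio of large to small subunit counts was 1.12 to 1.37 in the sorted libraries, 1.30 in wild type and 1.27 in the library labelled knockout. The split over genes was much less even in sorted cells. The 5 members with most counts held 50.3% to 55.4% of the family in each sorted library and 26.5% and 26.9% in the neocortex libraries. Between 13 and 29 members had fewer than 10 counts in a sorted library, and 5 and 4 did in wild type and the library labelled knockout.

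Levels between genes were compared as CPM per kilobase, with gene lengths derived from the deposited RPKM values of the neocortex. These are not measured mRNA lengths, and they run from 346 to 6286 bases among the members, with Rps15a longest. Ranks per kilobase and all comparisons by length below rest on them. In sorted cells the highest large subunit genes were Rpl4 (uL4), which lines the exit tunnel, at 236 on this scale (199 to 294 over the 8 libraries), and Rpl8 (uL2), which lies near the peptidyl transferase centre, at 227 (101 to 310). Rplp1 of the acidic stalk stood at 121 (31.0 to 175), Rpl32 at 62.2 (31.1 to 82.2) and Rpl22, an RNA-binding protein, at 43.6 (26.7 to 55.6). The ranges of Rpl4 and Rpl8 overlapped, as did those of neighbours further down this order.

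Among the highest small subunit genes was Rps15, at 96.5 CPM per kilobase (78.0 to 118). Rps9, Rps3 and Rps15a had 42.3, 40.7 and 25.8, and their ranges overlapped. Rps3 forms part of the mRNA entry channel. The lowest large subunit genes with any count were Rpl39l (0.0923), Rpl29 (0.163), Rpl3l (0.178), Rpl26 (0.908) and Rpl17 (1.01). Rpl39l and Rpl3l are known as paralogs of testis and of muscle. The lowest small subunit genes were Rps18 (0.259), Rps29 (0.552), Rps6 (0.743), Rps2 (1.11) and Rps28 (1.29). Rps6 is the classic substrate of the S6 kinases.

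The order differed in part in the neocortex. Rplp1 led there at 709 CPM per kilobase, with Rpl32 at 521, Rpl8 at 500.4, Rpl4 at 482 and Rps15 at 397. Across the 76 members with at least 5 CPM in the neocortex, log2 levels per kilobase in sorted cells and in neocortex had Pearson's r of 0.51 and Spearman's rho of 0.41. This is a correlation across genes, which are not independent replicates, and both axes share the same gene lengths. Rplp0, the base of the acidic stalk, ranked 11 of the members in neocortex and 52 in sorted cells, and Rpl5 ranked 74 and 10.

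Start sites are shown for 11 members whose values recur below, since the TOP motif lies there. They were chosen for those values and to show long and short runs, and are not a sample of the family. Each line gives 15 bases before and 15 bases from the start of transcription, 5′ to 3′ on the gene's strand, from RefSeq on GRCm38.p6, with the longest run of pyrimidines in capitals. These coordinates belong to that build and not to the mm9 build of the deposited files. Rpl15, Rplp2, Rpl14, Rps9, Rps15a and Rps10 carry long runs, and Rpl5, Rps3, Rpl37, Rplp0 and Rpl11 short ones.
Rpl15 (chr14:18270972-18271001, minus strand): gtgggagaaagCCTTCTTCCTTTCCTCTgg
Rpl14 (chr9:120571502-120571531, plus strand): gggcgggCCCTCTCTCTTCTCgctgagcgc
Rplp2 (chr7:141447636-141447665, plus strand): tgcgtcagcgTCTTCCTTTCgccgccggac
Rps9 (chr7:3704026-3704055, plus strand): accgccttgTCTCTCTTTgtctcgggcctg
Rps15a (chr7:118116133-118116162, minus strand): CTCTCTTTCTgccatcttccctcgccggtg
Rps10 (chr17:27635230-27635259, minus strand): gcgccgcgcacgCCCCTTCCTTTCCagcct
Rpl5 (chr5:107900513-107900542, plus strand): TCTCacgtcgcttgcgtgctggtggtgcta
Rps3 (chr7:99483695-99483724, minus strand): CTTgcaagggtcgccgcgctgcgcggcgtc
Rpl37 (chr15:5116598-5116627, plus strand): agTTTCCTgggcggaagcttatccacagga
Rplp0 (chr5:115559452-115559481, plus strand): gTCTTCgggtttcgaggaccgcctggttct
Rpl11 (chr4:136053379-136053408, minus strand): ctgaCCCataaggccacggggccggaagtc
The run was 17 bases in Rpl15, 14 in Rpl14, 10 in Rplp2, 9 in Rps9, 10 in Rps15a and 13 in Rps10, against 6 in Rpl37, 5 in Rplp0, 4 in Rpl5 and 3 in Rps3 and Rpl11. It covers the annotated start in Rpl15, Rpl14, Rplp2, Rps9 and Rps10. In Rps15a and in the members with short runs it ends before the annotated start, and so lies outside the annotated mRNA. Rps15a also has another, shorter run, left in lower case above, that does cover its annotated start.

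Pyrimidine runs at the start were more frequent in the family than in genes at large. Of the 82 members, 62 had an entry in the RefSeq promoter table, which holds 27025 genes. Within 25 bases on either side of the start, a run of at least 8 pyrimidines on the gene's strand was present in 33 of the 62 (53.2%) and in 22.3% of all genes. The letters TCTTT occurred on the gene's strand in 15 (24.2%) against 7.07% of all genes, and on the other strand in 2 (3.23%) against 6.63%. A C at the annotated start followed by 4 pyrimidines was found in 13 (21.0%) against 3.01%. Matches to TCTTT can lie inside a longer run. These counts describe the letters at annotated starts, and a gene with several starts was counted once if any of them matched.

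No ribosomal protein gene passed the test between Fezf2 and GFP cells. The test was edgeR's quasi-likelihood test over 13754 genes with Benjamini-Hochberg adjustment at 0.05, and the smallest adjusted p among the members was 0.729. Genes at large passed at a rate of 0.0145%, which are 2 genes, Fezf2 itself (higher) and Eif1b (lower). The low-count filter let 64 members into the test, 41 of the large and 23 of the small subunit. Among the 18 that did not reach it were Rpl3, Rpl17, Rpl22l1, Rpl26, Rpl29, Rps2, Rps6, Rps16, Rps18 and Rps27. DESeq2 also called 0 members, and passed 0.0509% of the same genes.

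Most tested members had a mean below GFP, by small amounts. The log2 fold change was below 0 for 32 of 41 large subunit and 21 of 23 small subunit genes, which is 53 of 64 against 47.1% of all genes tested. The median log2 fold change was −0.16 for the large subunit, −0.28 for the small subunit and 0.02 for all genes tested. An unadjusted p under 0.05 was reached by 4 members (Rpl5, Rpl37, Rpl30 and Rps15a), or 6.25% of those tested, all 4 with lower means in Fezf2. Of all genes 6.55% reached it in either direction and 2.24% with a lower mean. The Fezf2 and GFP libraries did not overlap for 4 tested members, Rps15a, Rpl37 and Rpl30 among them, all lower in Fezf2, again 6.25%. Genes at large had 4.71% without overlap in either direction and 2.46% without overlap and lower. With 4 genes in each count, nothing is read from the difference.

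The raw values differed between units, and the medians moved with single libraries. On the deposited RPKM, an alternative added after seeing the data, 24 of 41 large subunit and 19 of 23 small subunit genes had a lower mean in Fezf2, against 32.2% of all genes tested. The median log2 difference of mean RPKM, with 0.1 added, was then −0.05 for the large subunit, −0.11 for the small subunit and 0.14 for all genes tested. The RPKM scale differs between the sorted libraries and was not adjusted. Less the median of all genes tested, the RPKM medians were −0.19 for the large and −0.26 for the small subunit. The small subunit median was −0.18 without Fezf2 replicate 2 and −0.12 without Fezf2 replicates 1 and 2, a choice made after seeing the data. The large subunit median was −0.31 without Fezf2 replicate 4, −0.30 without Fezf2 replicate 5, −0.27 without GFP replicate 1, and −0.25 without GFP replicate 2 or without Fezf2 replicate 3.

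Rpl5 had the smallest p of the tested large subunit genes (0.0128 unadjusted, edgeR's quasi-likelihood test), while Rpl37, Rpl23, Rpl34, Rpl19 and Rpl13 had larger log2 fold changes of −1.25 to −0.71. Rpl5 binds the 5S ribosomal RNA together with Rpl11, and the free particle is known to inhibit Mdm2. Rpl5 (ENSMUSG00000058558) had 172.9, 170.3 and 185.2 CPM in the GFP replicates and 94.4, 58.8, 89.5, 174.8 and 124.0 in Fezf2 replicates 1 to 5. Fezf2 replicate 4 lay inside the GFP range and the other 4 below it. The log2 fold change was −0.70 (SE 0.25), with an adjusted p of 0.729 by edgeR's quasi-likelihood test. With no low-count filter the same test gave Rpl5 an adjusted p of 0.0252, and it was then the only member called, while 0.444% of genes passed. It was also the only member called in a fit with the replicate number as a block, which passed 0.0436% of genes. Fezf2 replicates 4 and 5 have no GFP library of the same number, so they add nothing to the group difference in that fit. The GFP-like value of replicate 4 was thus left out of it. The labels do not say whether samples of the same number are paired. Its partner Rpl11 was sparse, with 4.57, 5.27 and 3.24 in GFP and 13.9, 3.96, 2.35, 7.22 and 4.91 in Fezf2. The groups overlapped for Rpl11, the highest value being Fezf2 replicate 1, and its log2 fold change was 0.55 (SE 0.55), which became 0.07 without that library.

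The acidic stalk proteins Rplp0, Rplp1 and Rplp2 form the arm that recruits elongation factors. Rplp1 had 68.4, 86.8 and 77.8 CPM in GFP and 29.5, 15.3, 63.9, 86.7 and 53.7 in Fezf2. Its Fezf2 replicates 1 and 2 were far below GFP, whereas replicate 4 matched the highest GFP library. The log2 fold change of Rplp1 was −0.64 (SE 0.38), and −0.41 without Fezf2 replicate 2. Rplp2 had 8.97, 11.8 and 10.6 in GFP and 6.19, 9.50, 10.3, 11.8 and 8.78 in Fezf2, with overlapping groups and a log2 fold change of −0.16 (SE 0.33), which ran from −0.26 to −0.04 when 1 library was left out, nearest 0 without Fezf2 replicate 1. Rplp0 had 4.04, 4.52 and 5.60 in GFP and 3.24, 0.264, 5.17, 6.64 and 6.198 in Fezf2. Only Fezf2 replicate 2 was far from the rest for Rplp0, and its log2 fold change of −0.13 (SE 0.65) became 0.17 without that library.

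Other large subunit genes followed Rplp1 in form. Rpl8 had 214.0, 239.8 and 256.8 CPM in GFP and 107.3, 86.8, 199.2, 261.1 and 205.6 in Fezf2, again with replicates 1 and 2 lowest and replicate 4 highest. Its log2 fold change was −0.46 (SE 0.27), and −0.30 without Fezf2 replicate 2. The log2 fold changes of Rpl22, Rpl32 and Rpl15 were −0.34 (SE 0.20), −0.44 (SE 0.27) and −0.50 (SE 0.27), and Fezf2 replicates 1 and 2 were the lowest of all 8 libraries for each of them. Rpl37 and Rpl30 did not overlap between groups. Rpl37 had 5.45, 4.52 and 8.85 in GFP and 1.77, 1.85, 2.82, 3.18 and 3.36 in Fezf2, a log2 fold change of −1.25 (SE 0.51) at a low level. Rpl30 had 17.2, 27.8 and 20.9 in GFP and 17.1, 14.8, 15.5, 14.4 and 8.01 in Fezf2, where Fezf2 replicate 1 lay just under the lowest GFP library. Rpl4, at the highest level per kilobase, differed little, with 332.5, 335.9 and 401.9 in GFP and 345.3, 336.8, 281.5, 330.2 and 346.0 in Fezf2 (log2 fold change −0.12, SE 0.14).

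Rps15a had the smallest p of the tested small subunit genes (0.00777 unadjusted, edgeR's quasi-likelihood test). Rps15a had 193.4, 204.2 and 185.2 CPM in GFP and 162.8, 156.9, 146.1, 128.0 and 129.4 in Fezf2. All 5 Fezf2 libraries lay below all 3 GFP libraries, with replicates 4 and 5 lowest, which is the reverse of the order in Rpl8 and Rplp1. The log2 fold change was −0.43 (SE 0.14) with an adjusted p of 0.729 by edgeR's quasi-likelihood test, and it stayed between −0.47 and −0.39 when any 1 library was left out.

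Rps3 had 192.4, 200.2 and 211.1 CPM in GFP and 167.8, 134.5, 188.0, 203.4 and 175.6 in Fezf2. Fezf2 replicate 4 lay inside the GFP range and replicates 1 and 2 were lowest. Its log2 fold change was −0.21 (SE 0.15). The log2 fold changes of Rps9 and Rps21 were −0.29 (SE 0.22) and −0.50 (SE 0.34). Without Fezf2 replicate 2 those of Rps3, Rps9 and Rps21 were −0.14, −0.18 and −0.30, and Rps9 had −0.46 without Fezf2 replicate 4. Rpsa, which is also known as a laminin-binding protein, had −0.50 (SE 0.56) at 3.14 to 4.41 CPM on average, with −0.12 without GFP replicate 2 and −0.87 without GFP replicate 3. Rps27a, made as a fusion of ubiquitin to the ribosomal protein, was 1 of only 2 tested small subunit genes with a higher mean in Fezf2. It had 7.21, 5.52 and 5.31 in GFP and 10.9, 7.12, 9.63, 8.67 and 8.52 in Fezf2, where Fezf2 replicate 2 overlapped GFP replicate 1 (log2 fold change 0.57, SE 0.36).

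**Figure D2:**
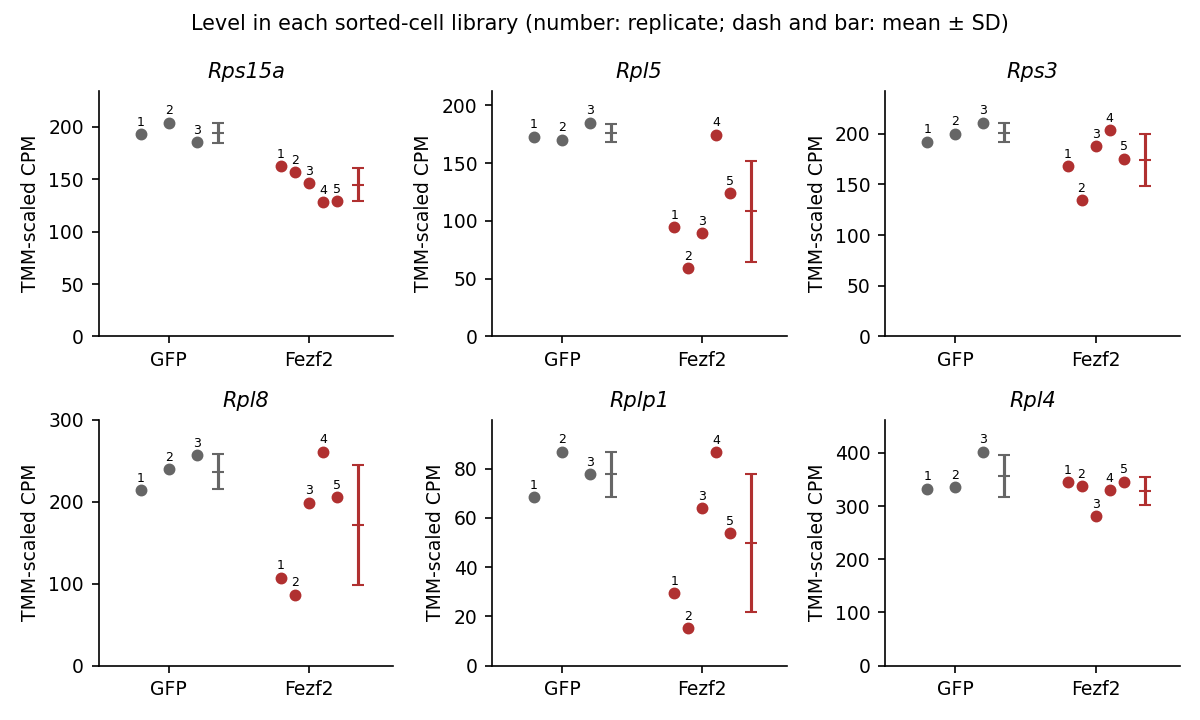
Level of 6 ribosomal protein genes (y axis, TMM-scaled CPM, from 0) in the 3 GFP and 5 Fezf2 libraries (points, numbered by replicate; dash and bar, mean ± SD). Rps15a separates the groups, Fezf2 replicate 4 sits at GFP level for Rpl5, Rps3, Rpl8 and Rplp1 while replicates 1 and 2 sit low, and Rpl4 overlaps between the groups.

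Minor paralogs were sparse or uneven. Rps27l, a p53 target in many tissues, had 22.5, 22.1 and 14.4 CPM in GFP and 4.42, 9.76, 16.2, 26.3 and 24.3 in Fezf2. Replicates 1 and 2 were low and replicates 4 and 5 above GFP, so its log2 fold change of −0.28 (SE 0.43) became 0.17 without replicates 1 and 2, and ran from −0.53 to −0.05 when 1 library was left out. Rpl7l1 had a log2 fold change of −0.16 (SE 0.32), −0.31 without Fezf2 replicate 4 and −0.04 without Fezf2 replicate 1, and Rpl36al, matched from a fixed list of minor paralogs, −0.57 (SE 0.69). Rpl22l1, the paralog that Rpl22 is known to repress, reached 2.06 to 2.51 CPM in GFP and 0 to 2.31 in Fezf2 and was not tested.

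The medians of both subunits followed a similar order of libraries, and so did those of other short mRNAs. Taken as the median log2 difference from the GFP mean over tested genes, the large subunit stood at −0.47, −0.39, −0.25, 0.00 and −0.21 in Fezf2 replicates 1 to 5, and the small subunit at −0.62, −0.47, −0.15, 0.02 and −0.17. Replicates 1 and 2 were thus lowest and replicate 4 at the GFP level. The respiratory chain subunits of the nucleus, another group of short housekeeping mRNAs, had medians of −0.64, −0.63, −0.04, 0.08 and −0.11 in the same libraries. All 652 tested genes shorter than 1 kb had −0.33, −0.33, −0.05, 0.02 and −0.09, and the 6318 of 4 kb or longer 0.10, 0.10, 0.02, −0.03 and 0.02. Short genes at large thus lay below long ones in replicates 1 and 2. Proteasome genes, with a median length of 2309 bases, had −0.28, −0.44, −0.05, −0.07 and −0.18. Mitochondrial ribosomal proteins, with a median length of 1707 bases, had −0.35, −0.29, −0.01, 0.08 and −0.19. The part of gene length in the result was not tested beyond the length-adjusted fit. With an offset for gene length, added after seeing the data, the medians were −0.14 for the large and −0.23 for the small subunit, with 0 members called.

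**Figure D3:**
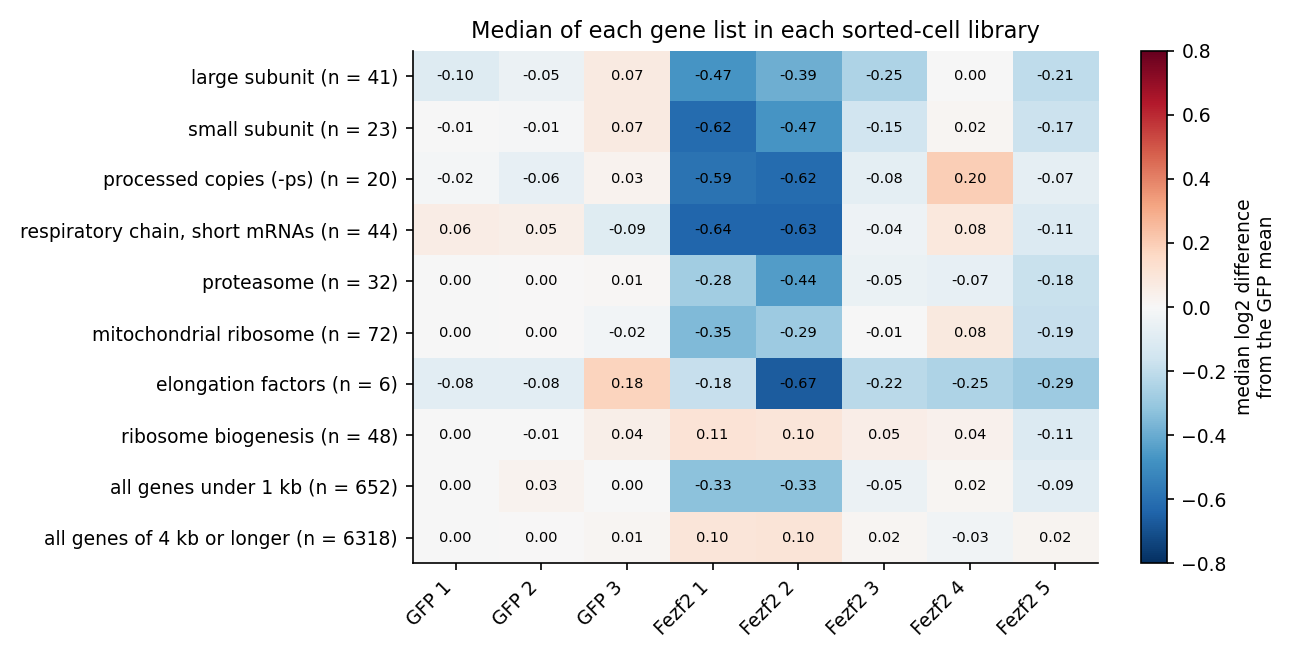
Median log2 difference from the GFP mean (colour and number) over the tested genes of each list (rows) in each sorted-cell library (columns). Both subunits, the processed copies, the respiratory chain and all genes under 1 kb are lowest in Fezf2 replicates 1 and 2. In replicate 4 the copies stand at 0.20 and the other 4 lists between 0.00 and 0.08.

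Single members showed a similar order of libraries. Of the 64 tested members, 38, 36, 28, 20 and 33 lay below all GFP libraries in Fezf2 replicates 1 to 5, where genes at large did so in 33.6%, 33.5%, 26.8%, 32.2% and 28.3%. The members below 1 kb had a median log2 fold change of −0.42 (16 of 17 lower), those of 1 to 2 kb −0.12 (15 of 22), those of 2 to 4 kb −0.16 (16 of 19) and those of 4 kb or longer −0.30 (6 of 6). The bins use the lengths derived from RPKM, and the longest bin holds Rps15a and the uncertain RPL24 row. Over the 64 members, log2 length and log2 fold change had Pearson's r of 0.13 and Spearman's rho of 0.15, and over 13312 genes 0.09 and 0.12. Over the 8 sorted libraries, pairs of members with at least 10 CPM had a median Pearson's r of 0.19 within the large subunit (19 genes), 0.54 within the small subunit (11 genes) and 0.00 between any genes. Pairs of respiratory chain genes had 0.56. Such pairs share library and depth. The spread over Fezf2 replicates was wider than over GFP replicates, with a median SD of 0.45 against 0.17 on the log2 scale for 30 members, and 0.34 against 0.20 for all genes at that level.

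Tested members were also split by the pyrimidine run at the start. The 27 with a run of at least 8 had a median log2 fold change of −0.22 (21 lower), and the 21 without had −0.18 (19 lower). The difference was not tested.

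Markers of neurons and of other cell types also varied over the Fezf2 libraries. Cortical glutamatergic neuron markers, a list that holds Fezf2, had lower means in Fezf2 for 9 of 12 genes. Their sums were 3380 to 3591 CPM in GFP and 1844 (replicate 4) to 4482 (replicate 1) in Fezf2, so the highest sum was in a library with low ribosomal medians. Pan-neuronal markers were lower for 7 of 9 (5811 to 5903 and 3955 to 5964). Interneuron markers were higher for 7 of 9 (157 to 228 and 122 to 317), and endothelial and pericyte markers for 6 of 7 (46.0 to 62.5 and 52.2 to 184). Astrocyte markers had higher means in Fezf2 for 8 of 8 genes, with summed levels of 651 to 894 CPM in GFP and 511 to 2791 in Fezf2. Radial glia markers were higher for 9 of 10 genes, with sums of 2037 to 2803 and 1792 to 5543. Oligodendrocyte lineage markers were higher for 7 of 7 (580 to 776 and 695 to 1654) and cell cycle genes for 12 of 14 (373 to 426 and 320 to 844). Fezf2 itself was the only gene of these lists that passed the test. The highest astrocyte and radial glia sums were in Fezf2 replicate 4, where the ribosomal medians were at the GFP level, and the lowest in Fezf2 replicate 1, where they were lowest. Fezf2 replicate 2, with astrocyte markers at 1900, had low ribosomal medians too. Microglia markers summed to at most 37.2 and red blood cell markers to at most 16.46, with Hba-a1 and Hba-a2 at 0. In mixed cells such as these, fewer cells of a type and less RNA per cell cannot be told apart, and the part of cell makeup in the ribosomal values was not tested.

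Other genes of protein synthesis were read from fixed lists. The elongation factors, which the stalk recruits, had lower means in Fezf2 for 5 of 6 genes (median log2 fold change −0.37). Eef1a1 had 189.2, 190.1 and 232.4 CPM in GFP and 99.96, 79.9, 161.9, 175.0 and 174.6 in Fezf2, without overlap, and a log2 fold change of −0.56 (SE 0.23). Eef1b2 had −0.43 (SE 0.21), and −0.29 without Fezf2 replicate 2. None of the elongation factors passed the test. Of 32 tested initiation factors 21 were lower (median −0.05), and 1 of them, Eif1b, passed the test. Eif1b, which takes part in start codon selection, fell by 1.20 on the log2 scale (SE 0.18), with an adjusted p of 0.0458 by edgeR's quasi-likelihood test. It had 355.6, 372.8 and 344.7 in GFP and 125.9, 106.6, 168.9, 183.4 and 191.3 in Fezf2, all 5 below all 3. Its adjusted p lay above 0.05 in 7 of the 8 fits that left out 1 library, all but that without Fezf2 replicate 4, and its log2 fold change stayed between −1.30 and −1.10 in these fits.

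Other mRNAs known to carry TOP motifs were lower for 17 of 21 tested (median −0.14). Ribosome biogenesis factors had 22 of 48 lower and a median of 0.01, with −0.73 for Gar1 and 0.60 for Nat10, and genes of the mTORC1 and Myc pathways had 9 of 15 lower (median −0.06). Host genes of small nucleolar RNAs, many of which are TOP genes, were lower for 6 of 8 (median −0.31). Snhg5 had 108.5, 115.4 and 144.5 CPM in GFP and 54.6, 74.1, 66.5, 77.1 and 68.7 in Fezf2, without overlap (log2 fold change −0.85, SE 0.16). The mitochondrial ribosomal proteins were lower for 50 of 72 (median −0.10), proteasome subunits, Psma6 (−0.40) and Psma7 (−0.33) among them, for 25 of 32 (median −0.23) and respiratory chain genes for 37 of 44 (median −0.28). Among the respiratory chain genes, Ndufb2 had a log2 fold change of −0.61 and Ndufb10 of −0.78. Targets of p53 were lower for 3 of 10 (median 0.06). Beyond Eif1b, none of these lists held a gene that passed.

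Ribosomal protein genes were far lower in the sorted cells than in the neocortex, as a share of counts. The totals behind these shares include mitochondrially encoded genes, which lowers every sorted-cell share. Without those genes the family took 0.214% to 0.372% of a sorted library, in place of 0.167% to 0.294%. Of 76 members with at least 5 CPM on average in the neocortex, 73 were lower in sorted cells, where 68.2% of 10953 genes were lower. The median member was 7.14-fold lower (large subunit 7.07, small subunit 8.33), against 1.37-fold for 10671 genes tested in sorted cells. The sets are unlike, since the members include some too sparse in sorted cells to be tested. At least 8-fold lower were 34 of the 76 members, against 2.51% of all genes. Strain, age, sorting, RNA type and library kit all differ between these libraries and cannot be told apart. Read mapping and counting may differ too. Mitochondrially encoded genes had counts in the sorted libraries only, and the deposited RPKM equalled count-based values in the neocortex only. The part of read handling was not tested, so this is a description of the deposited counts with no test. Respiratory chain genes were 1.40-fold and mitochondrial ribosomal proteins 1.47-fold lower at the median, and the part of gene length was not tested. Elongation factors were 9.32-fold lower.

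The size of this difference varied widely among members. Rpl17 had a mean of 0.788 CPM in sorted cells (0 to 2.24) and 189 in neocortex, 239-fold apart. Rpl29 had 4 counts in all sorted libraries together, 0.131 CPM, and 27.2 in neocortex. Rps2 had 2.03 against 215, Rplp0 4.46 against 305 and Rps4x 2.65 against 155 CPM. Rps18, of the head of the small subunit, had 0.649 against 51.5. At the other end, Rpl4 had 337 against 689 and Rps3 183 against 410.5. Only 3 members were higher in sorted cells, Rpl5 (134 against 20.1 CPM), Rps27l (17.5 against 10.6) and the uncertain RPL24 row (48.2 against 39.4). The median fold was 8.28 for members under 1 kb, 9.40 for 1 to 2 kb, 3.24 for 2 to 4 kb and 2.34 for 4 kb or longer. Over 76 members log2 length and the log2 ratio had Pearson's r of 0.28 and Spearman's rho of 0.27, and over 10953 genes 0.25 and 0.24.

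**Figure D4:**
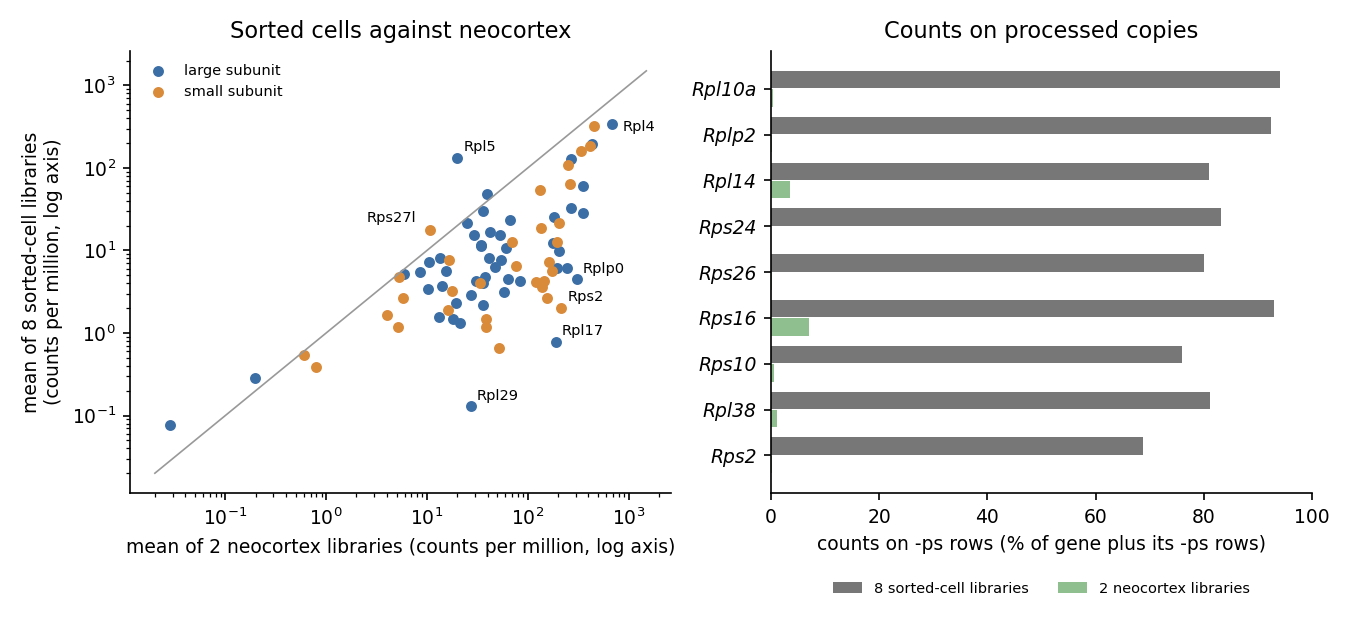
Left, mean CPM of each ribosomal protein gene in 8 sorted-cell libraries (y) against 2 neocortex libraries (x), both axes logarithmic, with the line of equality. Most members lie below the line, and Rpl5 and Rps27l above it. Right, counts on -ps rows as a percent of a gene plus its -ps rows, for the 9 genes whose copies held at least 100 counts and more than 2 times the counts of the gene itself in sorted cells.

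Processed copies took many of the reads in sorted cells and few in neocortex. Rows named -ps held 16.95% to 19.8% of the counts on members and copies together in the sorted libraries, 0.793% in wild type and 0.764% in the library labelled knockout. Copy rows existed for 58 members. Per such gene, the median share of counts on its copies was 9.70% in sorted cells and 0.135% in neocortex. With the libraries of each kind summed, copies held more counts than the gene itself for 15 genes in sorted cells and for 0 in neocortex. In wild type alone, Rpl3 had 83 counts against 227 on its copies. Rpl10a had 247 counts of its own against 3964 on its copies in sorted cells, and 1655 against 7 in neocortex. Rplp2 had 310 against 3849 and 6193 against 9, Rpl14 had 747 against 3169 and 1967 against 72, and Rps24 had 235 against 1165 and 4805 against 2. For these genes the sorted-cell levels given above leave out most of the reads that match gene or copies. Whether reads were mapped and counted alike in sorted cells and neocortex is not stated, and its part in the copy shares was not tested.

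Rps16, Rps26, Rps10 and Rpl38 had copy shares of 93.0%, 80.1%, 76.0% and 81.3% in sorted cells. Exceptions in neocortex were Rpsa-ps10, with 399 counts in wild type and 824 in the library labelled knockout, and Rpl3-ps1 with 227 and 195. Members with copy rows were not the only ones low in sorted cells. The median log2 difference of sorted cells from neocortex was −2.99 for 55 members with -ps rows and −2.45 for 21 without. Only rows named -ps were counted as copies, so members without such rows may have copies under other names. This split therefore cannot show how much of the difference lies in reads lost to copies. In the Fezf2 comparison 20 copy rows were tested, 16 were lower, the median log2 fold change was −0.24 and none passed. Rpl10a-ps1 had 135.9, 113.6 and 123.3 CPM in GFP and 119.1, 140.3, 111.8, 139.8 and 109.2 in Fezf2. Its groups overlapped fully. Rplp2-ps1 had 128.9, 150.3 and 137.4 in GFP and 60.5, 60.4, 130.9, 158.6 and 132.0 in Fezf2, with replicates 1 and 2 again lowest.

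In the neocortex the library labelled knockout was compared with wild type, 1 library each, so there is no test and no replicate check. Log2 ratios used a prior count of 2 and kept genes that reached 5 CPM in wild type or in the other library. Most members were slightly higher in the library labelled knockout. Of 76 members, 54 had a ratio above 0 and 22 below, where 50.8% of 11218 genes were above 0. The median log2 ratio was 0.16 for the large and 0.15 for the small subunit. More than 2-fold higher were 4 members, all of the large subunit, against 1.01% of all genes, and more than 2-fold lower were 0, against 1.32% (2.33% for both directions). Exact binomial 95% intervals, which cover counting error only, lay above 0 for 33 members and below 0 for 11. They were not computed for all genes, so nothing is read from these counts.

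The 4 members with the highest ratios in the large subunit were at low or moderate level. Rpl3, a protein of the peptidyl transferase centre, had 83 counts in wild type and 525 in the library labelled knockout, or 7.02 and 29.4 CPM. Its log2 ratio was 2.04 (interval 1.73 to 2.42). Its copy Rpl3-ps1 went the other way, at −0.81, with 227 and 195 counts. In wild type this copy held more counts than Rpl3, and the part of read assignment in the Rpl3 ratio was not tested. Rpl29 had 174 and 708 counts (1.42, interval 1.19 to 1.68), Rpl26 157 and 531 (1.154, interval 0.90 to 1.43) and Rpl34 479 and 1528 (1.08, interval 0.93 to 1.23). Rpl35a, with 230 and 695 counts, lay just under 2-fold at 0.99. Rpl26 is known to bind p53 mRNA and raise its translation. In sorted cells Rpl3, Rpl29 and Rpl26 were too sparse to be tested.

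The lowest large subunit ratios were those of Rpl30 (609 and 597 counts, −0.62, interval −0.79 to −0.46), Rplp0 (4048 and 4772, −0.36, interval −0.42 to −0.30), Rpl22l1 (172 and 206, −0.33) and Rpl5 (261 and 323, −0.29). Rplp0 thus differed in direction from its stalk partners, since Rplp1 had 3333 and 7541 counts (0.58, interval 0.52 to 0.64) and Rplp2 2124 and 4069 (0.34, interval 0.27 to 0.42). Rpl4 and Rpl22, both abundant, had −0.07 and 0.02. In the small subunit the highest ratios included Rps16 (44 and 117 counts, 0.79, interval 0.30 to 1.35), Rps18 (523 and 1050, 0.41) and Rps15 (2656 and 5276, 0.39). The lowest were Rps19, a gene mutated in Diamond-Blackfan anaemia (941 and 1061, −0.42, interval −0.55 to −0.29), Rps3a (−0.27), Rps13 (−0.26) and Rps6 (−0.25). Rps15a, the small subunit gene of smallest p in the sorted cells, had 336 and 343 CPM and a ratio of 0.03. Members of both subunits kept their order of level between the genotypes, with Pearson's r of 0.98 and Spearman's rho of 0.97 across 76 genes. Elongation factors were all above 0 (6 of 6, median 0.26) and mitochondrial ribosomal proteins were above 0 for 43 of 73 (median 0.07). Respiratory chain genes were above 0 for 32 of 47 (median 0.12), and genes under 1 kb for 201 of 297 (median 0.17).

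**Figure D5:**
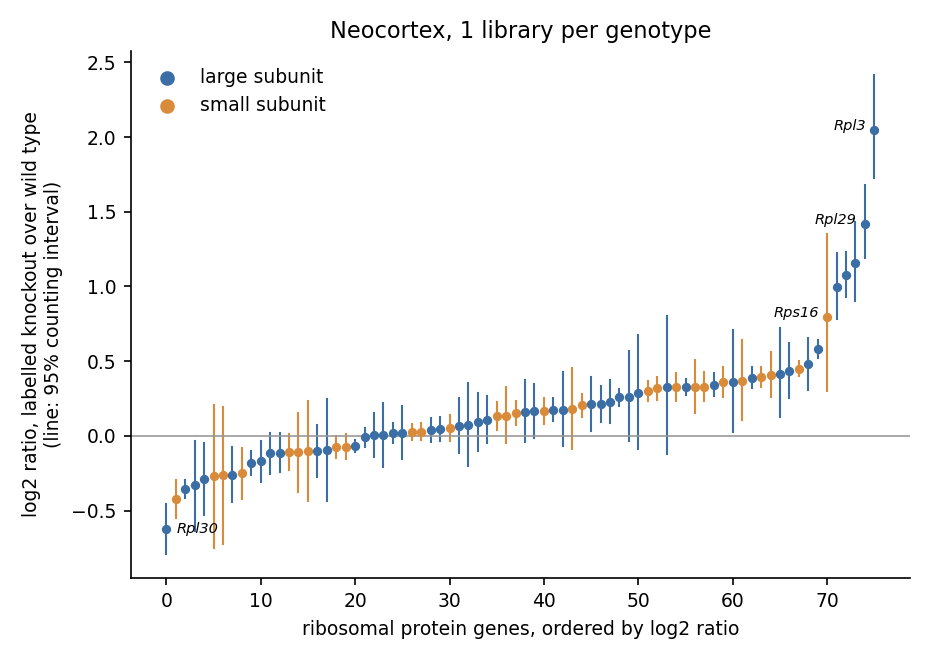
Log2 ratio of the library labelled knockout over wild type (y axis) for 76 ribosomal protein genes ordered by ratio (x axis), coloured by subunit. Lines are 95% exact binomial intervals for counting error, with 1 library per genotype. Of the 76 genes 54 lie above 0, and Rpl3 stands highest at 2.04.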

How the data were processed

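Raw read counts and RPKM values, each per Ensembl gene, were deposited by the authors for 10 RNA libraries sequenced as 75 bp single reads. Per the submitters' processing notes, the tools were Bowtie 0.12.5, STAR 2.4.0e, MACS2 2.0.9 and HTSeq 0.6.1 with build mm9. Their roles and the annotation are not given in these sources. The deposited RPKM equalled count-based values in neocortex (median ratio 1.00) and 0.255 to 0.456 of them in sorted libraries, so counts were used. Gene lengths came from the neocortex RPKM and counts. Sorted cells were tested with edgeR 4.0.16 (filterByExpr, TMM, robust quasi-likelihood test, group as the only term, Benjamini-Hochberg over all genes) in R 4.3.3, and with DESeq2 1.42.0 as an alternative. Each SE is the absolute log2 fold change over the square root of F. Per-library medians used log2 of CPM plus 0.5. The test was also run on simulated data in which all genes and both groups had the same spread setting. That does not copy the wider spread of the Fezf2 libraries, so nothing is read from it. Peak lists were not used here, since no gene annotation of their build was at hand. Named genes were, of each subunit, the 8 of smallest p, the stalk, 5S and minor paralog genes, the 5 highest and lowest levels, and the 4 highest and lowest neocortex ratios, and 2 to 4 per list. Rpl10a, Rpl14, Rps24, Rps26, Rps10, Rpl38, Rps4x, Rpl35a, Rpl36al, Rpl23, Rpl19, Rpl13 and the copy rows were named after their values were seen, as was Rpl4 beyond its level. Some genes that the rule names are not reported here. Members and lists were chosen with earlier results of these data known. Depth was 3245932 to 17856211 counts per library.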

Additional observations from a re-analysis of the deposited data

Results flagged for a closer look

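Rpl14-ps1, a processed copy of Rpl14, had 75.9 CPM in Fezf2 replicate 5, apart from the other 4 Fezf2 libraries at 96.0 to 103. It was 1 of 40 sets of Fezf2 values examined for a library that stands apart, and chance gives about 1 in 20 such sets.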

How the results depend on the processing

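No member was called under DESeq2's size factors, library totals, mitochondrial genes left out, DESeq2, the length offset or the sets without Fezf2 replicates 1 and 2 or 1, 2 and 4. The last 3 were chosen after seeing the data. With no low-count filter 1 member (Rpl5) and 117 genes passed, against 0 and 2. DESeq2 called 7 genes, library totals 1, and the sets without replicates 1 and 2 or 1, 2 and 4 called 5 and 6. Without 1 library, 0 members and 1 to 2 genes passed, and the medians ran from −0.31 to −0.16 (large subunit) and from −0.36 to −0.18 (small subunit). Same-numbered samples are not stated to be paired, and correlations of their deviations were −0.05, −0.01 and −0.05. A replicate block called 1 member (Rpl5, adjusted p = 0.0314 by edgeR) and 6 genes (0.0436%), with a large subunit median of −0.37. Fezf2 replicates 4 and 5, which have no GFP library of the same number, add nothing to the group difference in that fit. The family's share in sorted cells, 0.233% of counts, was 0.376% of summed RPKM and 0.304% without mitochondrial genes, and in neocortex 0.889% of counts was 2.77% of RPKM. Direction turned for Rplp0, which ran from −0.34 to 0.17 when 1 library was left out (0.0060 without GFP replicate 3, 0.17 without Fezf2 replicate 2), and had 0.35 without Fezf2 replicates 1 and 2 and 0.27 without 1, 2 and 4. It turned for Rps27l (0.17 and 0.028 in the last 2 sets), for Rpl11 (−0.28 in the last), for Rplp2-ps1 (0.016 without replicates 1 and 2) and for Rpl10a-ps1 (−0.064 to 0.067 without 1 library, above 0 without GFP replicate 1 or Fezf2 replicates 1, 3 or 5, and 0.16 with the length offset). The cause was not tested. The 4 highest and 4 lowest neocortex ratios of each subunit moved by less than their counting error under library totals, a minimum of 1 CPM and a prior count of 0.5. Ratios of the other members were not checked singly. On the deposited RPKM, also added later, the medians were −0.05 (large), −0.11 (small) and 0.14 (all genes tested). At least 13 members had under 10 counts in each sorted library, so their values rest on few counts, and a count of 0 there allows up to 0.517 to 0.924 CPM (3 counts, counting error only).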
